A study of Bombyx mori with 4 samples.

Results

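Short unclassified repeats are entries of the silkworm transposon library whose name carries the class Unclassified and whose sequence is under 500 nt long. By this rule, which used name and length only, 859 of the 18596 sequences in the table were chosen. They made up 50.1% of the 1716 transposon-library sequences and 74.3% of the 1156 unclassified ones. All 859 were annotated as transposons by the authors. BmVasa, the silkworm homolog of the DEAD-box RNA helicase Vasa, was crosslinked to RNA with UV light, precipitated with an antibody, and the attached RNA was sequenced (FAST-iCLIP). The cells were BmN4, a line labelled as derived from ovary of Bombyx mori. Both groups received siRNA by electroporation, against luciferase in the control (Luc KD) or against Spindle-E (Spn-E KD), whose loss lowers the piRNA-loaded form of the PIWI protein Siwi. Each group held 2 replicates, which the authors merged, so each value below comes from 1 pooled library per group.

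Vasa is a marker of germ cells and gathers in nuage, a perinuclear granule in which PIWI proteins cleave transposon transcripts guided by piRNAs. A transposon library is a collection of consensus sequences, each standing for many genomic copies. An entry stays unclassified when it resembles no known family of transposons, and short entries can be fragments, non-autonomous elements or simple repeats. Such an entry has no known coding strand, so the sense direction in the table is that of the entry as it is written. An RNA made of the repeat alone and a longer RNA that contains it cannot be told apart in these counts.

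The Luc KD library held 1012269 genome-mapped reads and the Spn-E KD library 1059323, of which 384001 and 403022 were sense reads on the library of genes and transposons. Levels are given as RPM (reads for every 1000000 genome-mapped reads) and, where repeats of different length are compared, as RPKM (RPM per kb of sequence). A single read was worth 0.988 RPM in Luc KD against 0.944 RPM in Spn-E KD. Of the 16880 gene models, 0 could be found by identifier in the RefSeq gene table (assembly ASM3026992v2), so neither the knockdown of Spn-E nor markers of ovary were checked, and the grouping relies on the labels. No level of total RNA was set beside these counts, so binding and the amount of an RNA cannot be told apart. With pooled columns no difference has a replicate check. Every test on reads compares the pooled libraries, and intervals are 95% intervals for counting error only.

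The first question was how much of the RNA bound to BmVasa fell on these repeats. They received 5988 reads in Luc KD against 6079 in Spn-E KD. Their share of gene-library reads was 1.56% (Wilson interval 1.52 to 1.60) under Luc KD and 1.51% (1.47 to 1.55) under Spn-E KD. Their combined sequence, 198844 nt, was 0.633% of the length of the whole table. Per length, the summed level was 29.7 RPKM in Luc KD against 28.9 RPKM in Spn-E KD, beside 12.1 RPKM in both libraries for the whole table. Without the pair of repeats with the most reads it was 24.1 and 22.1 RPKM. The median repeat was at 7.78 RPKM in Luc KD against 6.51 in Spn-E KD, and the median over the whole table was 2.58 and 2.29 RPKM. These levels per length are descriptions and their difference was not tested.

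Reads were spread unevenly over the repeats. Any read was found for 558 repeats in Luc KD against 549 in Spn-E KD, which was 65.0% and 63.9% of the 859. Over the whole table, whose sequences are mostly longer, it was 80.7% and 80.0%. In both libraries, 465 repeats had reads, while 217 had none in either. The detected repeats had a median of 4 reads in each library. In Luc KD 264 repeats had 1 to 3 reads, and in Spn-E KD 264 did as well. At the other end, 4 repeats had 100 reads or more in Luc KD against 3 in Spn-E KD. A repeat without reads may lie at up to 2.96 RPM in Luc KD or 2.83 RPM in Spn-E KD, the level of 3 reads. Repeats seen in 1 library only numbered 93 for Luc KD and 84 for Spn-E KD, with at most 6 reads each.

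BmTE_RM6-7117 was the repeat with the most reads. It is 195 nt long and received 909 reads in Luc KD against 1024 in Spn-E KD, or 898 and 967 RPM. This single repeat took 15.2% (Wilson interval 14.3 to 16.1) of the reads on short unclassified repeats under Luc KD and 16.8% (15.9 to 17.8) under Spn-E KD. By mean RPKM it stood in place 2 of all 18596 sequences, at 4605 RPKM in Luc KD against 4957 in Spn-E KD. Place 1 belonged to BmTE_RM5-571, an unclassified repeat of 9536 nt. By mean RPM, which does not correct for length, BmTE_RM6-7117 stood in place 27.

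BmTE_RM6-744, only 97 nt long, came next. It received 242 reads in Luc KD against 409 in Spn-E KD, or 239 and 386 RPM. Per length it reached 2465 and 3980 RPKM, place 3 of the whole table by mean RPKM and place 137 by mean RPM. Together with BmTE_RM6-7117 it took 19.2% of the reads on short unclassified repeats in Luc KD against 23.6% in Spn-E KD. The next sequence of the table by mean RPKM, a protein-coding gene model, was at 1530 RPKM on average, and no other short unclassified repeat was among the 10 highest.

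BmTE_RM1-498, of 349 nt, was in place 3 by mean RPM, with 187 reads in Luc KD against 165 in Spn-E KD. Its level per length was 529 and 446 RPKM. The exact Poisson intervals of the reads in both libraries together kept these 3 repeats apart from each other and from the next, with 1848 to 2021 reads for BmTE_RM6-7117, 602 to 703 for BmTE_RM6-744 and 316 to 391 for BmTE_RM1-498. From place 4 on, each interval overlapped that of the next repeat. BmTE_RM5-3163 in place 4 had 123 reads in Luc KD against 72 in Spn-E KD. BmTE_RM1-348 in place 5 had 78 and 76, and BmTE_RM1-651 had 71 and 50. These were followed by BmTE_RM1-191 with 65 and 48 reads, BmTE_RM1-102 with 51 and 62, BmTE_RM1-226 with 47 and 65, and BmTE_RM1-185 with 45 and 64. The order of these last repeats was thus not resolved at this depth.

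**Figure D1:**
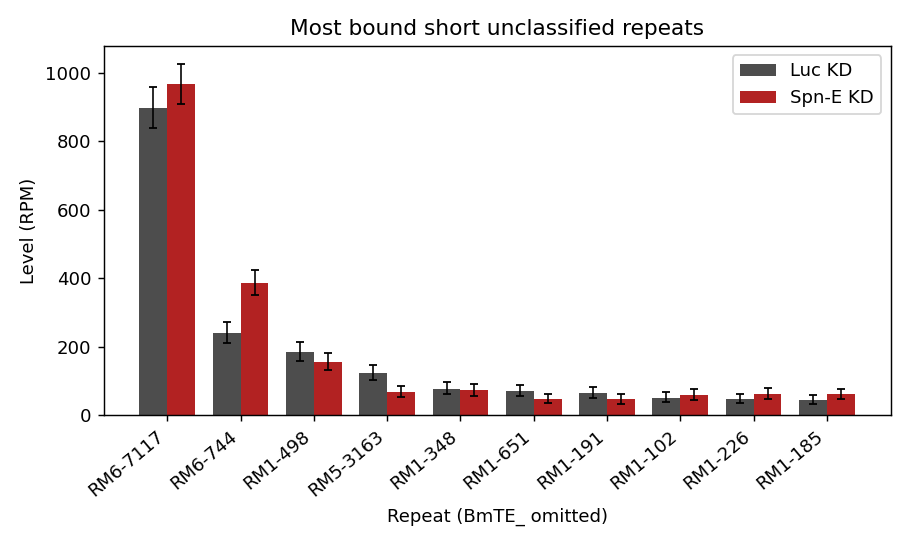
Level in RPM (vertical axis) of the 10 short unclassified repeats with the highest mean RPM, in the pooled Luc KD library (grey) and the pooled Spn-E KD library (red). Bars show exact Poisson intervals of the reads, which cover counting error only; BmTE_RM6-7117 reached 898 and 967 RPM, and BmTE_RM1-498 185 and 156 RPM.

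The 10 repeats with the most reads took 30.4% (Wilson interval 29.2 to 31.5) of the reads on short unclassified repeats under Luc KD and 33.5% (32.3 to 34.7) under Spn-E KD. The first 100 took 68.3% and 70.5%. Among the remaining 120 repeats with a mean of at least 10 RPM, reads ranged from 3 to 62 in Luc KD, with a median of 18, and from 7 to 64 in Spn-E KD, with a median of 19. By mean RPKM, 10 of the 859 were among the 100 highest sequences of the table. BmTE_RM1-141, of 71 nt, was in place 3 among the short unclassified repeats on this measure, with 36 reads and 501 RPKM in Luc KD and 42 reads and 558 RPKM in Spn-E KD. BmTE_RM1-260, of 130 nt, was in place 5, with 57 reads and 433 RPKM in Luc KD and 36 reads and 261 RPKM in Spn-E KD. Neither had 100 reads in any library.

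Length was the next property examined. The repeats were 29 to 499 nt long, with a median of 223 nt and quartiles of 132 and 324 nt. Detection was higher in each longer length group. Below 100 nt, 36.8% of 152 repeats had a read in Luc KD against 34.2% in Spn-E KD. From 100 to 199 nt it was 59.9% of 212 in both libraries. From 200 to 299 nt, 71.3% of 240 repeats were detected in Luc KD against 69.2% in Spn-E KD. It was 77.7% of 157 repeats at 300 to 399 nt and 83.7% of 98 at 400 to 499 nt, in both libraries alike. A longer sequence has more positions on which a read can start, so these shares follow the sampling as well as the level. Only 18 repeats were shorter than 51 nt, the length of the sequenced reads, and 4 of them had any read, with 2 reads in all in Luc KD against 5 in Spn-E KD. The shortest, BmTE_RM6-363 with 29 nt, had 0 reads in Luc KD against 1 in Spn-E KD.

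Per length, the summed level did not rise with length from 100 nt on. Summed over a length group without BmTE_RM6-7117 and BmTE_RM6-744, the level in Luc KD was 18.7 RPKM below 100 nt, and 25.5, 23.8, 24.8 and 23.7 RPKM in the longer groups. In Spn-E KD it was 17.1, 24.5, 22.7, 22.2 and 20.7 RPKM, lower in each longer group from 100 nt on. A read must fit within the sequence, which takes the largest part of the positions from the shortest group. RPKM does not correct for this, so the lower level below 100 nt is not read as lower binding. Both of the left-out repeats are under 200 nt, and with them the first 2 groups were at 41.3 and 53.7 RPKM in Luc KD and at 53.8 and 54.8 RPKM in Spn-E KD. The median over all repeats of a group was highest at 400 to 499 nt. From 100 nt on it was 7.32, 9.08, 7.45 and 13.4 RPKM in Luc KD. In Spn-E KD these medians were 6.51, 7.03, 6.27 and 11.3 RPKM. Across the 642 repeats with any read, Spearman's rho of length with mean RPM was 0.30, and with mean RPKM it was −0.088. These correlations describe repeats that share the same libraries, and 1 read is worth more RPKM in a shorter sequence.

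**Figure D2:**
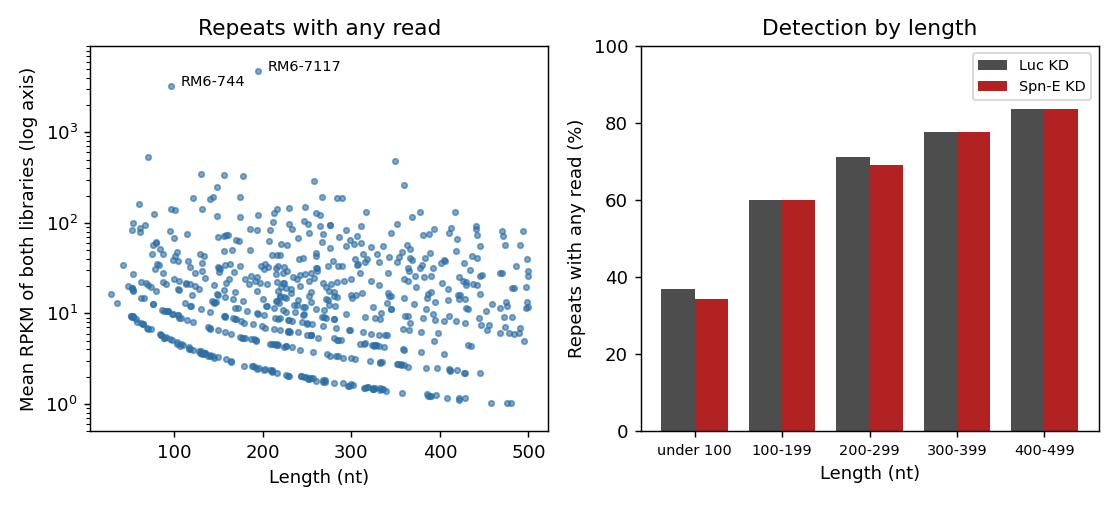
Left, mean RPKM of both libraries (log axis) against length in nt for the 642 short unclassified repeats with any read, 1 point per repeat; the curved rows of points are repeats with the same few reads. Right, share of repeats with any read in 5 length groups for Luc KD (grey) and Spn-E KD (red), from 36.8% and 34.2% below 100 nt to 83.7% at 400 to 499 nt.

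Repeats on both sides of the 500-nt limit are given here for orientation. The 3 longest repeats inside it, BmTE_RM5-1994, BmTE_RM5-2284 and BmTE_RM6-250, all of 499 nt, had 15, 16 and 8 reads in Luc KD and 12, 14 and 4 in Spn-E KD. The 3 shortest outside it, BmTE_RM6-892, BmTE_RM6-994 and BmTE_RM6-2344, of 500, 502 and 504 nt, had 0, 12 and 2 reads in Luc KD and 3, 12 and 4 in Spn-E KD. The median was 13.4 RPKM in Luc KD against 11.3 in Spn-E KD for the 98 repeats of 400 to 499 nt. It was 9.50 and 7.30 RPKM for the 56 unclassified repeats of 500 to 599 nt.

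The names of the repeats fall into series, whose meaning is not given in the sources used here. Series BmTE_RM1 held 361 repeats, BmTE_RM6 held 331, BmTE_RM5 133 and BmTE_RM4 25, with 9 repeats in the others, among them BMRP1, which had no reads. The BmTE_RM1 repeats were the shortest of the large series, with a median of 178 nt against 240 nt for BmTE_RM6, and yet more of them were detected. Reads were found for 71.2% of BmTE_RM1 repeats in Luc KD against 69.8% in Spn-E KD, beside 58.3% and 57.1% for BmTE_RM6. The median level was 14.4 RPKM in Luc KD against 12.2 in Spn-E KD for BmTE_RM1, 3.29 and 3.50 RPKM for BmTE_RM6, and 5.47 and 4.54 RPKM for BmTE_RM5.

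From 100 nt on, the median level of BmTE_RM1 was above those of BmTE_RM5 and BmTE_RM6 in every length group and in both libraries, given here with no test. Below 100 nt the medians of all 3 series were 0 in both libraries. The order of BmTE_RM5 and BmTE_RM6 was not the same in every group. At 200 to 299 nt, the median level in Luc KD was 20.2 RPKM for 92 BmTE_RM1 repeats and 4.64 RPKM for 91 BmTE_RM6 repeats, with 4.41 RPKM for 49 BmTE_RM5 repeats. At 400 to 499 nt it was 31.8 RPKM for 32 BmTE_RM1 repeats and 4.88 RPKM for 43 BmTE_RM6 repeats. In Spn-E KD these medians of BmTE_RM1 and BmTE_RM6 were 17.8 and 4.10 RPKM at 200 to 299 nt, and 29.9 and 4.52 RPKM at 400 to 499 nt. BmTE_RM1 and BmTE_RM6 were closest at 100 to 199 nt, with 10.0 RPKM for 101 BmTE_RM1 repeats and 5.21 RPKM for 80 BmTE_RM6 repeats in Luc KD, and 8.74 and 5.02 RPKM in Spn-E KD. At 300 to 399 nt the medians were 22.0 and 3.27 RPKM in Luc KD and 20.4 and 4.74 RPKM in Spn-E KD. BmTE_RM6-7117 and BmTE_RM6-744 thus belong to the series with the lowest median level of the large series. Without them, the BmTE_RM6 repeats received 1011 reads in Luc KD against 992 in Spn-E KD, and with them 2162 and 2425. BmTE_RM1 received 2987 and 2913 reads.

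The main comparison asked whether the BmVasa-bound reads on these repeats changed when Spn-E was depleted. A change in such reads can come from binding or from the amount of RNA. The study also sequenced total RNA, after knockdown of luciferase or Siwi rather than Spn-E, and those levels were not used here. As a sum the BmVasa-bound reads on these repeats did not differ beyond counting error under the scaling of the authors. The summed level was 5915 RPM in Luc KD against 5739 RPM in Spn-E KD, a log2 ratio of −0.044 (Clopper-Pearson interval −0.096 to 0.0079). The share of gene-library reads differed by −0.051 percentage points (Newcombe interval −0.11 to 0.0033). Both turned positive when BmTE_RM5-571 was left out of the base, to a log2 ratio of 0.13 (0.074 to 0.18) and a difference of 0.17 points (0.10 to 0.24). Without BmTE_RM6-7117 and BmTE_RM6-744 the log2 ratio was −0.12 (−0.18 to −0.065) under the authors' scaling, so under it these repeats decided whether the sum passed counting error. The scaling decided it as well. With all repeats the log2 ratio was 0.18 (0.13 to 0.24) under TMM and 0.25 (0.20 to 0.31) centred on protein-coding sequences. With DESeq2 size factors it was 0.022 (−0.030 to 0.073).

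BmTE_RM6-744 rose in Spn-E KD by 0.69 on the log2 scale of RPM + 1 (interval of the log2 ratio 0.46 to 0.93; adjusted p = 9.33e-08, exact binomial test). BmTE_RM6-7117 had a log2 fold change of 0.11 (−0.024 to 0.24; adjusted p = 0.337), which did not pass the test under the authors' scaling but passed it under 3 of 4 other scalings. BmTE_RM1-498 had a log2 fold change of −0.24 (−0.56 to 0.064; adjusted p = 0.369), which turned to 0.052 when centred on protein-coding sequences. BmTE_RM1-348 was at −0.10 (−0.58 to 0.37) and turned positive under 3 of 4 scalings.

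By length, the ratio under the authors' scaling moved from above 0 to below 0. The log2 ratio of summed RPM was 0.38 (0.20 to 0.56) below 100 nt, 0.031 (−0.065 to 0.13) at 100 to 199 nt and −0.073 (−0.18 to 0.035) at 200 to 299 nt. It was −0.16 (−0.27 to −0.052) at 300 to 399 nt and −0.20 (−0.32 to −0.069) at 400 to 499 nt. The value below 100 nt rested on BmTE_RM6-744 alone, since the 151 others had 196 reads in Luc KD against 188 in Spn-E KD, a log2 ratio of −0.13 (−0.42 to 0.17). At 100 to 199 nt, the value without BmTE_RM6-7117 was −0.058 (−0.20 to 0.083). Without these repeats the intervals of all 5 groups overlapped.

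**Figure D3:**
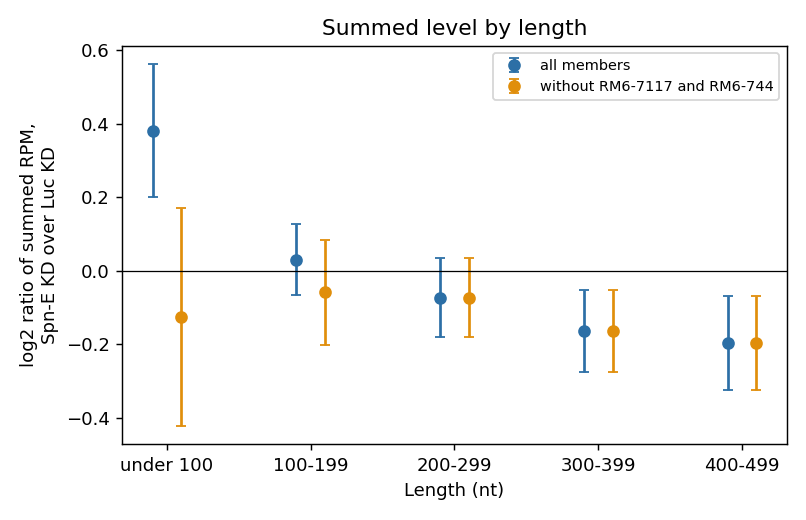
Log2 ratio of summed RPM, Spn-E KD over Luc KD (vertical axis), in 5 length groups (nt), for all short unclassified repeats (blue) and without BmTE_RM6-7117 and BmTE_RM6-744 (orange). Bars are Clopper-Pearson intervals for counting error under the authors' scaling, and another scaling moves all points alike against 0. Below 100 nt the ratio is 0.38 with BmTE_RM6-744 and −0.13 without it.

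Single repeats were tested where the mean of both libraries was at least 10 RPM, with p-values adjusted over all 4727 such sequences of the table. Of the 859 repeats, 130 passed this minimum, 104 of them with at least 10 RPM in both libraries and 26 in only 1. The exact binomial test called 8 of the 130, or 6.15%, with 4 higher and 4 lower in Spn-E KD. Over all tested sequences 12.0% were called, 3.74% as higher and 8.23% as lower, beside 3.08% in each direction for the repeats. The gap between the 2 shares depended on the scaling. Under TMM 13 repeats, or 10.0%, were called against 9.56% of all tested sequences, scaled to gene-library reads without BmTE_RM5-571 12, or 9.23%, against 10.1%, and centred on protein-coding sequences 12, or 9.23%, against 9.60%. With DESeq2 size factors it was again 8, or 6.15%, against 10.5%. At an unadjusted p under 0.05 there were 21 of 130, or 16.2%, against 23.8% of all tested sequences. A change of at least 2-fold in RPM + 1 was seen in 15 of the 130, or 11.5%, against 12.7% of all tested sequences. Of these, 8 were higher, or 6.15% against 3.13%, and 7 lower, or 5.38% against 9.54%. The share called depends on depth as well as on the change, and only 6 of the 15 passed the binomial test. Some of the 15, such as BmTE_RM5-104 and BmTE_RM4-1524, reached the minimum only through the library in which they were high. The 2-fold counts are thus descriptions and no support for a shift in either direction.

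Apart from BmTE_RM6-744, the repeats called higher were thinly covered in Luc KD. These 3 were under 10 RPM in Luc KD, at 7.90, 8.89 and 2.96 RPM in the order given here, and so are among the 26 repeats with at least 10 RPM in 1 library only. A repeat that reaches the minimum through the library in which it is high had to differ, so these calls are descriptions and no support for a rise. BmTE_RM6-2268, of 195 nt, had 8 reads in Luc KD against 42 in Spn-E KD, with a log2 fold change of 2.19 (interval of the log2 ratio 1.22 to 3.63; adjusted p = 4.30e-05, exact binomial test). BmTE_RM6-1189, of 174 nt, had 9 and 33 reads, a log2 fold change of 1.70 (0.71 to 3.06; adjusted p = 0.00482, exact binomial test). BmTE_RM5-104, of 392 nt, had 3 and 23 reads, with adjusted p = 0.00175 (exact binomial test) and a log2 ratio between 1.15 and 5.25. Of the 4 repeats called higher, 3 were of the BmTE_RM6 series and 3 were under 200 nt, beside 27 and 25 of the 130 tested. With 4 calls, nothing is read from these counts.

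The 4 repeats called lower were all over 300 nt, as were 70 of the 130 tested. BmTE_RM1-23, of 490 nt, had 45 reads in Luc KD against 12 in Spn-E KD, with a log2 fold change of −1.88 (−3.03 to −1.03; adjusted p = 9.92e-05, exact binomial test). BmTE_RM6-4298, of 317 nt, had 62 and 23 reads, a log2 fold change of −1.45 (−2.25 to −0.78; adjusted p = 0.00023, exact binomial test). BmTE_RM5-3163, of 359 nt and in place 4 by level, had 123 and 72 reads, a log2 fold change of −0.83 (−1.28 to −0.41; adjusted p = 0.00139, exact binomial test). BmTE_RM4-1524, of 389 nt, had 27 and 10 reads, a log2 fold change of −1.41 (−2.71 to −0.41; adjusted p = 0.0403, exact binomial test), and it was no longer called under any of the 4 other scalings. It was under 10 RPM in Spn-E KD and is also among the 26, so 4 of the 8 calls were of such repeats. Of the 81 tested BmTE_RM1 repeats 1 was called, or 1.23%, and of the 27 tested BmTE_RM6 repeats 4 were, or 14.8%, against 12.0% of all tested sequences. The difference between the series was not tested.

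The calls go beyond counting error only, not beyond the spread of replicates. When edgeR's exact test was given a biological coefficient of variation, assumed to be 0.1 between the libraries, it called 5 of the 130 and 4.04% of all tested sequences. At an assumed 0.2 it called 0 of the repeats, and 0.169% of all tested sequences. At an unadjusted p under 0.05 there were then 6 of the 130, against 7.13% of all tested sequences. The repeats lost at 0.1 were BmTE_RM6-744, BmTE_RM5-3163 and BmTE_RM4-1524. Directions of the 8 called repeats were the same under the 4 other scalings, but this outcome was fixed in advance. The scalings moved fold changes by less than the smallest called change. That was 0.69 for BmTE_RM6-744, which moved at most to 0.99, when centred on protein-coding sequences.

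**Figure D4:**
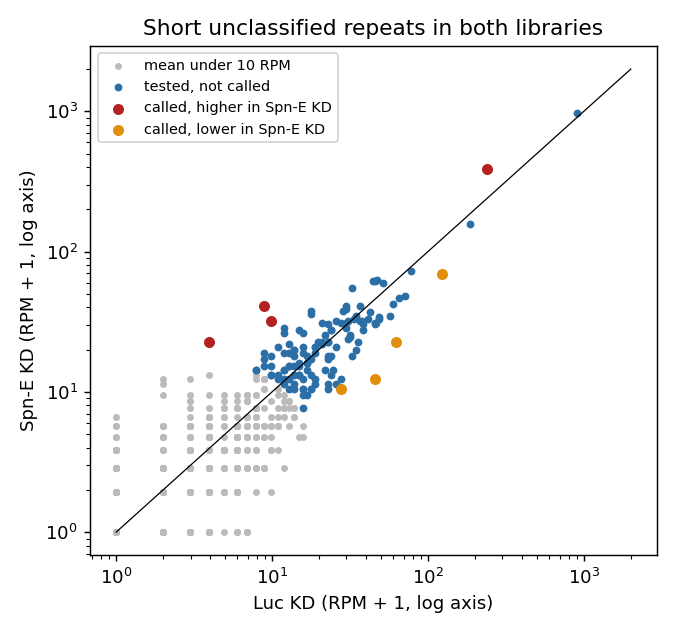
Level of each of the 859 short unclassified repeats in Luc KD (horizontal) and Spn-E KD (vertical), as RPM + 1 on log axes, with the line of equal level. Grey points are repeats with a mean under 10 RPM, blue points were tested and not called, and the 4 red and 4 orange points were called higher and lower by the exact binomial test.

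The repeats varied between the libraries in both directions, with little shift of the middle. Over the 130 tested repeats the median log2 fold change was 0.0052, with quartiles of −0.46 and 0.40, and 65 were above 0 and 65 below. Over all 4727 tested sequences the median was −0.24 and 34.5% were above 0, and over the 3544 tested protein-coding sequences the median was −0.30. The repeats thus lay 0.24 above the median of all tested sequences and 0.30 above that of protein-coding sequences, and 62.3% of them were above the median of all. This position was not particular to them, since the 563 tested sequences of the whole transposon library, the short unclassified repeats included, had a median of 0.030, with 51.3% above 0. The scaling sets the level of these medians, and under TMM scaling that of the repeats was 0.22 and that of all tested sequences −0.017. With no minimum on RPM the distance to all sequences was 0.043, because the median of all sequences moved to −0.043 while that of the repeats was 0. Across the 642 repeats with any read, Pearson's r of log2(RPM + 1) between the libraries was 0.81. Across the tested ones without BmTE_RM6-7117 and BmTE_RM6-744 it was 0.66. These are descriptions over repeats of the same pair of libraries.

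**Figure D5:**
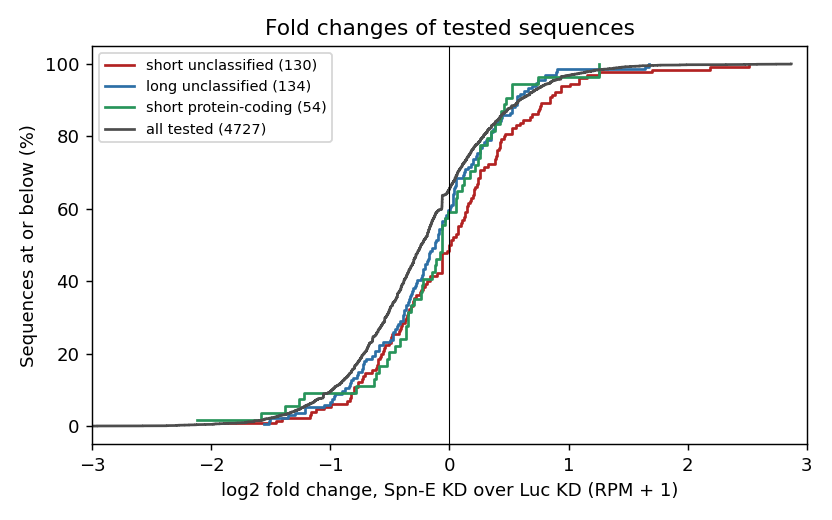
Cumulative share of tested sequences (vertical axis, %) at or below each log2 fold change of RPM + 1 (horizontal axis, Spn-E KD over Luc KD) for 130 short unclassified repeats (red), 134 long unclassified repeats (blue), 54 short protein-coding sequences (green) and all 4727 tested sequences (grey). The curve of the short unclassified repeats crosses the middle near 0.0052 and that of all tested sequences at −0.24.

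The ratio of the short unclassified repeats was last compared with that of 3 other sets of sequences, by Fisher's exact test on summed reads with p-values adjusted over the 3. The 296 unclassified repeats of 500 nt or more, BmTE_RM5-571 not counted, went from 13444 to 12526 reads. Relative to them, the short repeats were higher in Spn-E KD by 0.12 on the log2 scale (0.061 to 0.19; adjusted p = 0.000301). This rested on single repeats. With BmTE_RM5-571 counted, the long repeats went from 82574 to 122597 reads and the short repeats were lower relative to them, by −0.55 (−0.60 to −0.50). With the most abundant sequence of each set left out, which were BmTE_RM6-7117 and the long BmTE_RM1-295, with 2428 reads in Luc KD against 1684 in Spn-E KD, it was 0.016 (−0.052 to 0.085). Against the 146 classified library sequences under 500 nt, with 566 and 546 reads, the difference was 0.074 (−0.11 to 0.25; adjusted p = 0.65). Against the 984 protein-coding sequences under 500 nt, with 3966 and 4008 reads, it was 0.0066 (−0.076 to 0.089; adjusted p = 0.885). Differences from −0.076 to 0.089 relative to the latter were thus compatible with the counts at this depth.

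The other sets of sequences under 500 nt were covered more thinly per length. Reads were found in Luc KD for 49.3% of the classified library sequences under 500 nt, whose median length was 279 nt, and for 54.1% of the protein-coding sequences under 500 nt, whose median was 432 nt. Their summed levels in Luc KD were 13.6 and 9.47 RPKM, beside 29.7 RPKM for the short unclassified repeats. The long unclassified repeats, BmTE_RM5-571 not counted, were at 36.9 RPKM in Luc KD against 32.9 in Spn-E KD. In Luc KD 94.3% of them had reads, more than the short unclassified repeats. BmTE_RM5-571 alone was at 7162 RPKM in Luc KD against 10896 in Spn-E KD. These differences in level were not tested.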

How the data were processed

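BmVasa FAST-iCLIP was analyzed in 4 samples, 2 of Luc KD and 2 of Spn-E KD, grouped by their labels. Per the methods of the study and the submitters' processing notes, reads were trimmed with Cutadapt 4.0, reads under 27 nt were dropped, and PCR duplicates were collapsed on a random barcode. Reads were mapped to the SilkBase genome with STAR 2.7.9a, then to a library of gene models and transposons with Bowtie 1.3.1, and sense reads were counted with SAMtools 1.15. Reads that match several sequences were placed at random or counted at each, so counts of similar repeats are uncertain. The authors merged the replicates. The deposited counts are whole reads per sequence. The deposited RPM values are counts for every 1000000 genome-mapped reads, and the deposited RPKM values are RPM per kb.

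The members and lists were chosen with earlier results of these data known. Log2 fold changes used a pseudocount of 1 RPM and understate the change of low sequences. Sequences whose mean reached 10 RPM were tested by a two-sided exact binomial test with Benjamini-Hochberg adjustment at 0.05 over the whole table. Named repeats were the 10 with the highest mean RPM, the 5 with the highest mean RPKM, up to 5 rises and 5 falls past the threshold, the shortest, and those nearest to 500 nt. BMRP1 and BmTE_RM1-295 were named after their values were seen. The code was tested on simulated data. Intervals and floors cover counting error only. Alternatives covered the minimum, pseudocount, scaling, most abundant sequences, length and assumed variation. The software was scipy 1.17.1, statsmodels 0.14.6, numpy 2.4.6 and pandas 2.3.3 in Python 3.11.15, edgeR 4.0.16 and DESeq2 1.42.0 (size factors only) in R 4.3.3, and matplotlib 3.10.9.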

Additional observations from a re-analysis of the deposited data

How the results depend on the processing

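No paired analysis was possible because each column merges both replicates, and no replicate was left out for that reason. Leaving out the 2 most abundant sequences and counting start positions of a 27-nt read were chosen after the data were seen, as was counting BmTE_RM5-571 among the long unclassified repeats.

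The difference in share, −0.051 points, was 0.17 with gene-library reads without BmTE_RM5-571 as the base, and 0.050 when the 2 most abundant members were left out as well. It passed counting error at −0.068 without the most abundant member and at −0.11 without both, and it was −0.0086 (−0.061 to 0.044) when members and base were held to the minimum of 10 RPM. The log2 ratio of summed RPM, −0.044, became 0.13 on gene-library reads without BmTE_RM5-571, 0.18 under TMM, 0.022 with DESeq2 size factors and 0.25 when centred on protein-coding sequences. It was −0.072 without the most abundant member and −0.12 without both.

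The 8 calls (4 higher, 4 lower) became 2 (1 and 1) of 11 tested, or 18.2%, at a minimum of 50 RPM, where 45.4% of all tested sequences were called. Under TMM there were 13, of which 10 or 7.69% were higher, against 5.80% of all tested sequences. Scaled to gene-library reads without BmTE_RM5-571, 9 or 6.92% were higher against 5.33%. Centred on protein-coding sequences, 10 or 7.69% were higher against 6.66%, and 2 or 1.54% lower against 2.94%. With an assumed variation of 0.1, 5 or 3.85% were called against 4.04%, of which 2 were lower. The 3 called higher at 0.1 were the repeats under 10 RPM in Luc KD. At 0.2 and at 0.4 there were 0 (0 higher, 0 lower), with 6 and 2 of 130 at an unadjusted p under 0.05, against 7.13% and 0.719% of all tested sequences. Of the 8 calls, 7 were kept in the same direction under TMM, DESeq2 size factors and gene-library reads without BmTE_RM5-571, and 6 when centred on protein-coding sequences.

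The median log2 fold change, 0.0052, was 0.11 at 50 RPM, 0.17 scaled to gene-library reads without BmTE_RM5-571, 0.22 under TMM and 0.29 centred on protein-coding sequences. The median RPKM was 64.8 in Luc KD against 67.8 in Spn-E KD among repeats with at least 10 RPM, by construction of that minimum. Relative to long unclassified repeats, 0.12 became 0.016 without the most abundant sequence of each set and −0.039 without the 2 most abundant, −0.55 with BmTE_RM5-571 counted, and 0.19 (adjusted p = 2.79e-07, Fisher's exact test) with the minimum of 10 RPM. Relative to short protein-coding sequences, 0.0066 became −0.042 without the 2 most abundant.

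Of 138 values of named repeats in other settings, 106 had the same direction and the same call. Of the rest, 25 lost significance, of which 19 did so under assumed variation, 3 gained it and 4 reversed. Settings of the minimum and of assumed variation reuse the same counts and could not change a direction. Repeats not called in the main test had no call to lose. The count of 106 is thus no measure of stability. The reversed ones were BmTE_RM1-498, to 0.052 centred on protein-coding sequences, and BmTE_RM1-348, to 0.066, 0.12 and 0.19 scaled to gene-library reads without BmTE_RM5-571, by TMM and centred. Scaling shifts every fold change in the same direction by construction, and by slightly less for low sequences because of the pseudocount. With a median of 4 reads among detected repeats, depth limits what can be said of most of them.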
